A study of Homo sapiens with 6 samples.

Results

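The 9 genes described here encode Ras, Ral and Rap small GTPases (NRAS, HRAS, RRAS, RRAS2, MRAS, RALA, RALB, RAP1A and RAP1B). They were matched by gene symbol among 22933 symbols in a table of 406165 assembled loci, and 13004 symbols counted as expressed, with an FPKM (fragments per kilobase of transcript, scaled to the mapped fragments of a library) of at least 1 in either group and above 0 in both. All 9 passed this rule, but the locus of NRAS also holds another gene, so its FPKM cannot be read as NRAS and is not given. Values, counts and medians are for the other 8, a restriction chosen after seeing the data. RNA-Seq had been performed on PC-3 cells, an established human prostate cancer line, in 6 samples. All of them carried the Tet-On transactivator rtTA2 and a pPGK-driven tdTomato marker and had received 300 ng/ml doxycycline (Dox) for 4 hours. The 3 tdTom samples had no further transgene, and the 3 TTP-tdTom samples carried tristetraprolin (TTP) under the Dox-responsive promoter. Cells had been selected in G418 for the transactivator and sorted by their tdTom fluorescence, and whether they came from single clones is not given in the sources used here. The authors' table holds 1 FPKM value per group, so no spread between replicates, interval or test is given for any ratio here.

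ZFP36, the gene that encodes TTP, stood at an FPKM of 5.56 in tdTom cells and 5.54 in the group labelled TTP-tdTom, so the table does not show the transgene at this locus. Each direction is therefore given for the group as labelled. The epithelial keratins KRT8, KRT18 and KRT19 and the adhesion molecule EPCAM had an FPKM of 15.1 to 98.2 in the tdTom group, while E-cadherin (CDH1) was at 0.12, and the FPKM of these 5 markers summed to 194.6 and 194.9 in the tdTom group and the other. Of the fibroblast and blood markers, DCN, LUM, PTPRC, HBB and CD3E stayed at or under 0.73 in both groups, COL1A1 was at 4.34 and 4.56, and COL1A2 was listed at 0 in tdTom and at 1.38 in the other group. The locus of CD68 also holds EIF4A1 and other genes, so it checks nothing.

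Small GTPases are switches. Exchange factors load them with GTP, which lets them bind effectors, and GTPase activating proteins return them to the GDP-bound state. HRAS and NRAS are classical Ras proteins that activate the RAF, MEK and ERK kinases and PI3-kinase. RRAS, RRAS2 and MRAS form the R-Ras branch, with roles in adhesion and, for MRAS, in RAF activation together with SHOC2. RALA and RALB act below Ras through RAL exchange factors and bind the exocyst, and RAP1A and RAP1B control integrin and cadherin adhesion. TTP is an RNA-binding protein that recognises AU-rich elements in 3′UTRs, with UAUUUAU as a core motif, and brings mRNAs to decay.

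Both Rap1 genes and RRAS2 had lower mRNA levels in the group labelled TTP-tdTom, MRAS had a higher level, and the Ral genes, RRAS and HRAS changed by less than 1.5-fold. Counted at a 1.5-fold threshold, 3 of the 8 members were lower, 1 was higher and 4 were neither. With ratios centred on the median expressed symbol, RRAS2 no longer passed and 2 members were lower, RAP1A and RAP1B. The share of all expressed symbols that were lower was then 13.6%. Without centring, 22.8% of all expressed symbols were lower and 3.90% higher, so the 3 lower members of 8 stand near the background share. The median log2 ratio of the members was -0.36, against -0.23 over all expressed symbols. Of the 8 ratios, 7 lay below 0, as did 10203 of the 13004 over all expressed symbols. In such bulk samples, fewer cells that express a gene and less of its RNA per cell cannot be told apart.

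**Figure D1:**
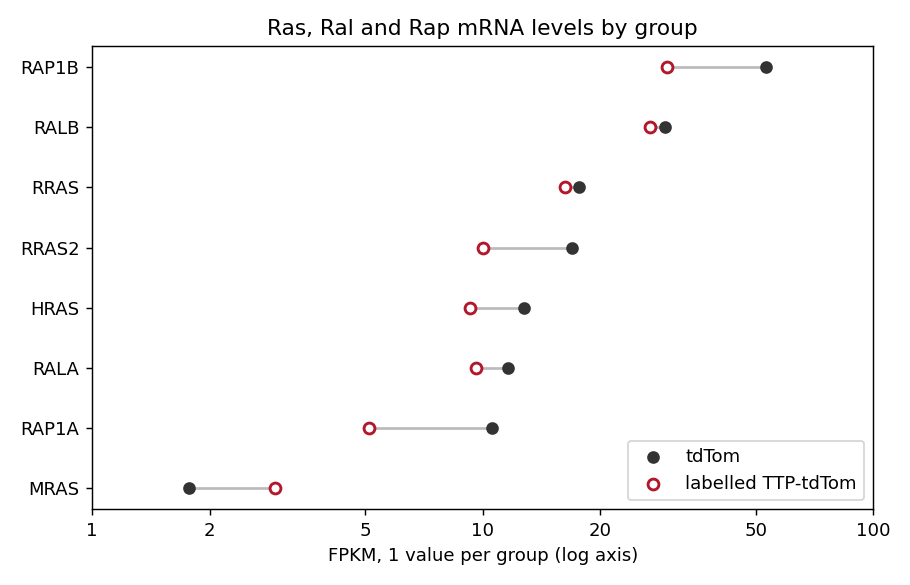
FPKM of each gene in the tdTom group (filled) and in the group labelled TTP-tdTom (open), on a log axis, 1 value per group with no error. The widest gaps belong to RAP1A (10.6 and 5.10), RAP1B (53.0 and 29.7) and RRAS2 (16.9 and 10.0), and MRAS alone has its open point on the right.

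The sites that carry the TTP motif are shown first, because the 3′UTRs of the members differ in them. The 3′UTRs came from GENCODE release 29 transcripts that match the RefSeq names of each locus, and the heptamer was sought on the RNA strand alone. Capitals mark UAUUUAU, with 10 bases on each side, and coordinates of the heptamer are in GRCh38 whereas loci are in GRCh37. RAP1A has 2 copies, at bases 894 (chr1:111713295-111713301, plus strand) and 3884 (chr1:111716285-111716291, plus strand) of its 4290-base 3′UTR. RRAS2 has 1 copy, at base 559 of 1411 (chr11:14278772-14278778, minus strand). RAP1B has 5 copies in the longest annotated 3′UTR of 12652 bases. The last of them, at base 12128 (chr12:68671377-68671383, plus strand), is the only one within the longer motif UUAUUUAUU and is the RAP1B site shown.
RAP1A, base 894: guucuaaauaUAUUUAUuccuacuaua
RAP1A, base 3884: cagcuuuuagUAUUUAUguuccccaaa
RRAS2, base 559: augccuguugUAUUUAUggauuaaaaa
RAP1B, base 12128: ugcacaagauUAUUUAUugccacacuc

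None of the 5 RAP1B copies lies in a transcript that matches the RefSeq names of the RAP1B locus, whose longest 3′UTR has 1273 bases and 0 copies. Within 12000 bases after the end of that locus, 4 loci were assembled, all without a symbol, and their FPKM did not exceed 1.85 for tdTom and 0.39 for labelled TTP-tdTom. Whether any of them covers the site shown was not tested, since sites and loci are in different builds. HRAS, RRAS, MRAS, RALA and RALB held 0 copies in 3′UTRs of 284 to 3265 bases. NRAS, for which no level is given, also held 1 copy, at base 3005 of 3625 (chr1:114705083-114705089, minus strand). These letters are thus present in RAP1A, RRAS2 and NRAS by the longest RefSeq-matched 3′UTR, and also in RAP1B by the longest annotated 3′UTR. The RefSeq-matched RRAS2 transcripts with shorter 3′UTRs of 234 and 227 bases held 0 copies. A further annotated RAP1A transcript, without a RefSeq match and with a 3′UTR of 712 bases, also held 0 copies. Over the 10880 expressed symbols with a RefSeq-matched transcript, 34.4% held at least 1 copy. Among those with a 3′UTR within 25% of the length of that of RAP1A the share was 67.4%, and it was 32.6% for the length of RRAS2, 59.3% for MRAS and 41.3% for RALA. A 3′UTR as long as that of RAP1A therefore holds the heptamer more often than not. A match describes the sequence and does not show a bound site.

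RAP1A, on chr1:112162405-112256101, had an FPKM of 10.6 in tdTom cells and 5.10 in those labelled TTP-tdTom. Its log2 ratio of -1.05 leaves 48.2% of the tdTom level, and it was the one member lower by at least 2-fold, as were 8.65% of all expressed symbols. RAP1B, on chr12:69004619-69054385, had an FPKM of 53.0 and 29.7, a log2 ratio of -0.84 with 56.0% left. RAP1B was 5.00 times as abundant as RAP1A in tdTom cells and 5.81 times with the TTP-tdTom label, so that the more abundant of these paralogs kept the larger share of its mRNA. Some sequence of RAP1B is not its own. Of the 75-base windows in its RefSeq-matched transcripts, 15.8% also occur in transcripts of 3 other genes, against 0.081% for RAP1A. The part of these shared windows in the RAP1B value was not tested.

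RAP2A and RAP2C, which encode Rap proteins of another branch, were also lower and had an FPKM of 23.4 and 9.92 and of 13.7 and 4.61, with log2 ratios of -1.24 and -1.57. Both hold 2 heptamer copies, at 38.0% and 36.4% transcript GC content. RAP2B, of the same branch and named after its value was seen, holds 1 copy at 41.1% GC and was neither lower nor higher. Its FPKM was 11.2 and 9.45, a log2 ratio of -0.25. In 10 classes of transcript GC content, 64.4% of symbols were lower in that of RAP2A and RAP2C and 35.8% in that of RAP2B.

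RALA, on chr7:39663152-39747723, had an FPKM of 11.6 in tdTom cells and 9.59 in those labelled TTP-tdTom, a log2 ratio of -0.28 that is close to the median of all expressed symbols. RALB, on chr2:121010381-121052363, had an FPKM of 29.2 and 26.8, a log2 ratio of -0.12 with 91.7% left. The log2 ratio of RAP1A was lower than that of RALA by 0.78, and that of RAP1B lower than that of RALB by 0.71. RALA and RAP1A had like levels in the tdTom group, with RALA 1.10 times as high, whereas it was 1.88 times as high in the group labelled TTP-tdTom. None of these differences between genes has an error, since each group has 1 value.

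Members of the R-Ras branch differed more from each other than the Rap1 pair or the Ral pair did, with log2 ratios from -0.75 to 0.72. RRAS2, also called TC21, on chr11:14298502-14386052, had an FPKM of 16.9 in tdTom cells and 10.0 in those labelled TTP-tdTom, a log2 ratio of -0.75. RRAS, on chr19:50138552-50143400, had almost the same level as RRAS2 in the tdTom group, 17.6, but 16.3 in the group labelled TTP-tdTom, a log2 ratio of -0.11. RRAS was thus 1.04 times as abundant as RRAS2 in the first group and 1.63 times in the second. Of the 75-base windows of RRAS2, 7.10% also occur in transcripts of 2 other genes, and none of RRAS do.

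MRAS, on chr3:138066490-138124525, was the only member with a higher value, an FPKM of 2.93 against 1.78, a log2 ratio of 0.72. It was also the lowest member in both groups, with a tdTom level at or above that of 13.7% of expressed symbols. At this level the ratio depends on the pseudocount: with 1 FPKM added to both groups it was 0.50 and no longer passed 1.5-fold. Its ratio was at or above that of 96.9% of expressed symbols.

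Of the classical Ras genes, HRAS, on chr11:531322-535550, had an FPKM of 12.7 and 9.29, a log2 ratio of -0.45 with 73.0% left. A second locus at the same coordinates, with 1 RefSeq name of HRAS, had an FPKM of 0.29 and 0.17 and was not used. Among all expressed symbols, 7.52% had a locus that holds a further symbol, as NRAS does.

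**Figure D2:**
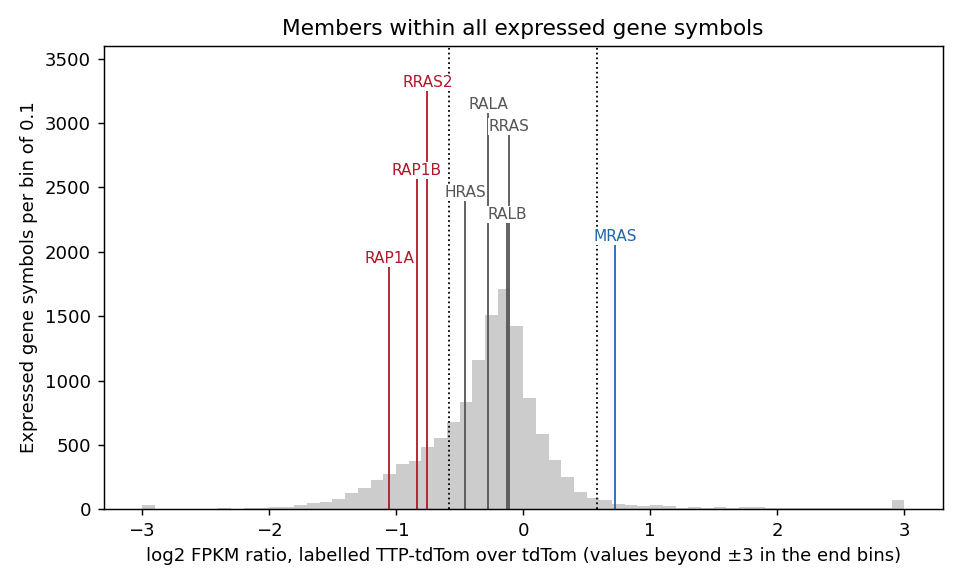
Histogram of the log2 FPKM ratio over 13004 expressed gene symbols, with a line at each member (red, lower by at least 1.5-fold; blue, higher; grey, neither; dotted, 1.5-fold). RAP1A, at -1.05, has 7.36% of the symbols at or below it, and MRAS stands in the sparse right flank.

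Across the 8 members, the FPKM added up to 153.5 for tdTom and 109.7 for labelled TTP-tdTom, so that 71.5% was left. RAP1B alone made up 53.4% of the difference. It was the most abundant of the 8 in both groups, with 34.5% of the sum in the tdTom group and 27.0% in the group labelled TTP-tdTom, while the share of RALB went from 19.1% to 24.5%. The order of levels was the same in both groups except that RALA and HRAS, at 9.59 and 9.29 in the group labelled TTP-tdTom, changed places. Whether neighbours in this order differ beyond their spread cannot be read from 1 value per group.

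The base composition of the transcripts moved with these ratios. In 10 equal classes of transcript GC content over the 10880 expressed symbols, the median log2 ratio was -0.77 in the lowest class and -0.09 in the highest, and the share lower by at least 1.5-fold went from 64.4% to 4.04%. RRAS2 (35.9% GC) and RAP1A (37.8%) belong to the lowest class and RAP1B (38.7%) to the next one, where 48.2% of symbols were lower. RRAS2 lay 0.01 above the median of its class, so it was an ordinary gene among those of like GC content. RAP1A lay 0.29 below its class median with 26.2% of the class at or below it, and RAP1B lay 0.28 below its own with 28.4%.

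RALA (41.8% GC) and RALB (45.8%) lay 0.14 and 0.12 above the medians of their classes, and RRAS (63.5%) lay 0.02 below. Of the 8 members, HRAS and MRAS stood furthest from genes of like GC content. HRAS, at 65.8% GC, lay 0.36 below its class median with 7.26% of the class at or below it, although its ratio did not reach 1.5-fold. MRAS, at 49.9% GC, lay 0.92 above its class median. Heptamer copies and GC content also went together, with a median GC content of 51.7% in symbols with 0 copies and 40.3% in those with 3 or more. Within the lowest GC class, the 732 symbols with a copy had a median log2 ratio of -0.82 and the 356 without had -0.66. The part of GC content in the ratios of the members was not tested.

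**Figure D3:**
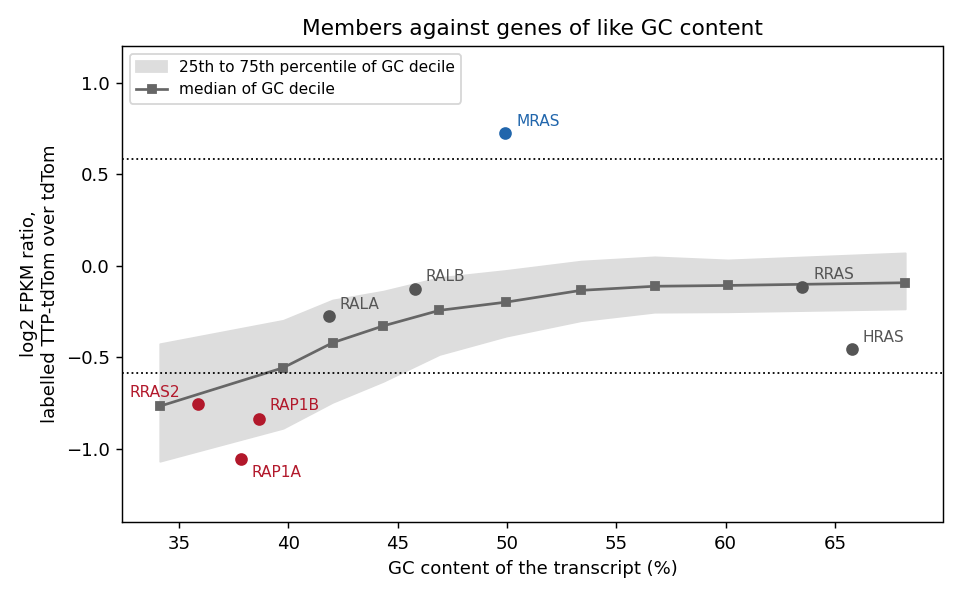
Transcript GC content (x axis, %) against the log2 FPKM ratio (y axis) for each member, with the median and the 25th to 75th percentile of 10 GC classes of expressed symbols (coloured as in the histogram). RRAS2 lies near the median line, MRAS above the band and HRAS below it, and RAP1A just under the band, which is drawn between class midpoints (26.2% of its own class lay at or below it).

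The scaling between the groups decides the direction of the smallest ratios. Centring on the median expressed symbol adds 0.23 to every log2 ratio, and RAP1A and RAP1B then stood at -0.82 and -0.60, still past 1.5-fold. RRAS2 stood at -0.52 and no longer passed, RRAS and RALB changed sign to 0.12 and 0.11, and MRAS moved to 0.96. Scaling to the same FPKM sum over loci with a symbol added 0.052 and kept each member on its side of the threshold.

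**Figure D4:**
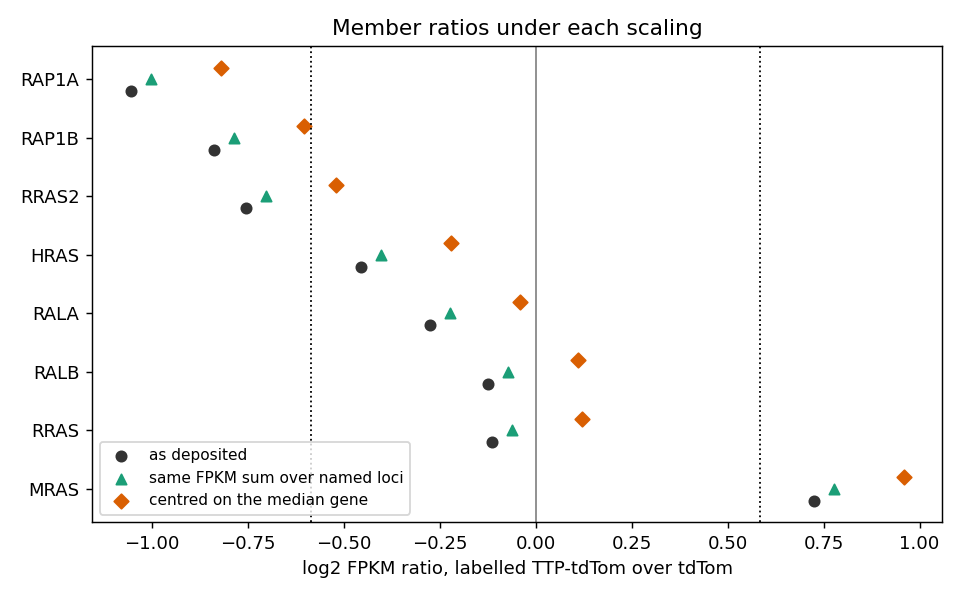
Log2 FPKM ratio of each member as deposited (circles), scaled to the same FPKM sum over named loci (triangles) and centred on the median expressed symbol (diamonds), with dotted lines at 1.5-fold. RAP1A and RAP1B stay past the threshold under all 3 scalings, and RRAS and RALB lie on both sides of 0.

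The genes that act with the members were taken from 6 lists by role, with 104 symbols, of which 75 were expressed. Of these 75, 26 were lower by at least 1.5-fold, 1 was higher and 48 were neither, with a median log2 ratio of -0.41. Of the 75, 5 had a locus that holds a further symbol and were neither lower nor higher, and without them 26 of 70 were lower with a median of -0.42. The share lower of the 75, 34.7%, stands beside the 22.8% of all expressed symbols. With ratios centred on the median expressed symbol, 14 of the 75 list genes were lower, beside 13.6% of all expressed symbols. Transcript GC content was available for 71 of the 75, and the lower genes SIPA1L1, RALGAPA1 and MLLT4 were among those without it. Among the 26 list genes in the 3 lowest GC classes, 14 were lower, against 49.5% of all symbols there. Among the 45 in the other classes 9 were lower, against 11.9%.

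Of 11 expressed genes among the other Ras subfamily GTPases, 6 were lower, 0 were higher and the median was -0.68. The share of all expressed symbols that were lower, 22.8%, stands beside this count and those of the lists below. Of these 11 genes, 5 were in the 3 lowest GC classes, where 49.5% of all symbols were lower. RHEB, the GTPase that activates mTORC1, had an FPKM of 54.0 in tdTom cells and 15.5 in those labelled TTP-tdTom, a log2 ratio of -1.80 at 48.0% GC and with 0 heptamer copies. RHEB had a tdTom level close to that of RAP1B and the lower value of these genes in the group labelled TTP-tdTom, where RAP1B was at 29.7. RASL11A and DIRAS1 were nearest to no change, at -0.13 and -0.23.

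Of 13 exchange factors, 2 were lower, 1 was higher and 10 were neither. RALGPS2, an exchange factor for Ral, had a log2 ratio of -0.92 (8.33 and 4.40 FPKM), and RAPGEF6, one for Rap, -0.88 (8.69 and 4.71). RAPGEF2, which also acts on Rap, was at -0.56. RGL1, a Ral exchange factor, was higher at 1.36, from an FPKM of 0.71 to 1.83, and so passed the minimum of 1 FPKM only through the group where it was high. With at least 1 FPKM in both groups, 0 list genes were higher. RGL3 was at 0.06.

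Of 16 GTPase activating proteins, 6 were lower and 0 higher. RASA2, which acts on Ras, had an FPKM of 11.0 and 4.88, a log2 ratio of -1.17. RALGAPA1, the catalytic subunit of a Ral complex, had one of -1.06 with 10.4 and 4.99. SIPA1L1, which acts on Rap, was at -2.03 with an FPKM of 426.8 and 104.6, the highest level of all list genes in the tdTom group. No GENCODE transcript was matched by RefSeq name for SIPA1L1 or RALGAPA1, so no GC content or heptamer count is given for them. Whether the high FPKM of the SIPA1L1 locus is that of its coding mRNA was not tested. RASA4 and RASA3 were at 0.26 and 0.20.

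Of 17 effectors, 7 were lower and 0 higher. PIK3CB, a catalytic subunit of PI3-kinase, had an FPKM of 17.7 and 8.61, a log2 ratio of -1.04. SHOC2, the scaffold that joins MRAS and a phosphatase, was at -0.90 (12.7 and 6.81), opposite in direction to MRAS. EXOC8, an exocyst subunit bound by Ral, was at -0.81 (5.75 and 3.28). ARAF and RIN1 were at 0.05 and 0.04. Further down the cascade, 1 of 7 genes was lower: MAP2K1, which encodes MEK1, had an FPKM of 7.37 and 3.05 and a log2 ratio of -1.27, while MAP2K2, which encodes MEK2, was at -0.10. IQGAP1, a scaffold, was at -0.52, and MAPK3, which encodes ERK1, was at -0.08.

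Ras, Ral and Rap proteins need a lipid anchor, and 4 of 11 genes for its processing and transport were lower. LYPLA1, a thioesterase that removes palmitate, had an FPKM of 17.9 and 5.52, a log2 ratio of -1.70, while its paralog LYPLA2 was at 0.14. GOLGA7, a partner of the palmitoyltransferase for HRAS and NRAS, was at -1.30 (23.8 and 9.66). PDE6D, which carries prenylated proteins through the cytosol, was at -0.80 from an FPKM of 13.9 in tdTom cells. ICMT, the methyltransferase of the last step, was at -0.05 with an FPKM of 156.4 and 151.4.

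**Figure D5:**
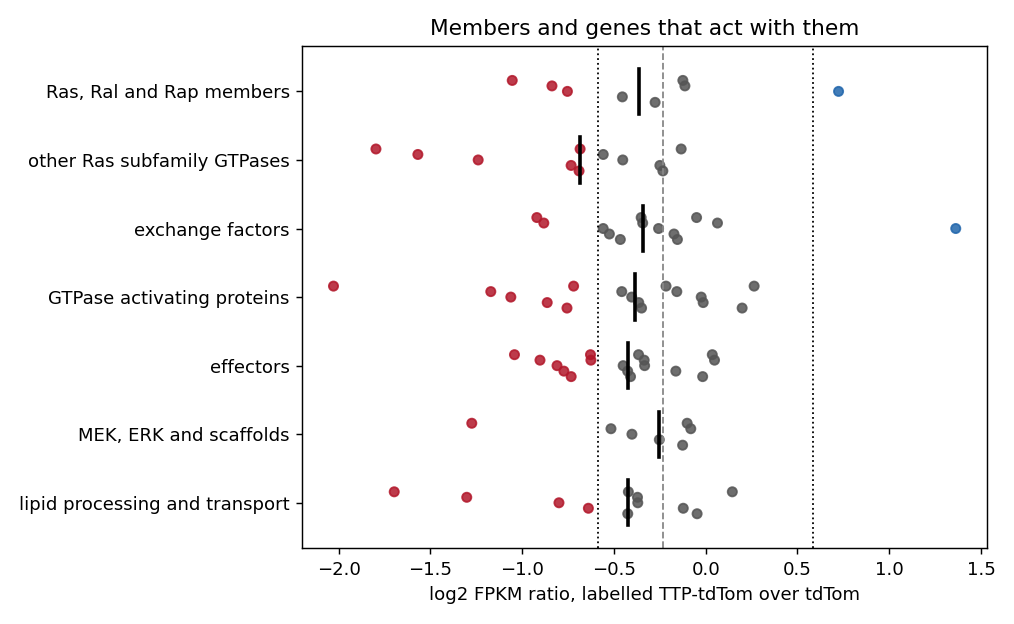
Log2 FPKM ratio of the members and of the expressed genes of each list (red, lower by at least 1.5-fold; blue, higher; grey, neither; bar, median of the list; dashed, median of all expressed symbols, -0.23). The other Ras subfamily GTPases have the lowest median, -0.68, and RGL1 and MRAS are the blue points.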

How the data were processed

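Strand-specific libraries were sequenced in pairs by the authors, aligned to Hs37D5 (GRCh37 with decoy) and assembled with the tools their processing notes name, TopHat2 2.0.13 and Cufflinks 2.2.1. FPKM values, 1 per group and locus, were deposited by the authors. The table also holds the authors' fold changes, test statistics, p-values and q-values, which were not used. The depth reached and the counts behind a value cannot be read from FPKM. Starts were counted from 1.

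Where several loci carried a symbol, that with the largest number of RefSeq names was taken, and among equals that with the highest summed FPKM. Ratios are log2 of the group labelled TTP-tdTom over tdTom without a pseudocount. As the table holds no samples, no test was run. Calls across all expressed symbols used a 1.5-fold threshold. From each list the 3 lowest and 2 highest expressed symbols were named. Some genes that this rule names are not reported here. Members and lists were chosen with earlier results of these data known. Transcripts of GENCODE release 29 matched by RefSeq name covered 10880 of 13004 expressed symbols (83.7%), and shared 75-base windows were exact matches on either strand. Functions were tested on simulated data. Python 3.11.15, numpy 2.4.6, pandas 2.3.3 and matplotlib 3.10.9 were used.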

Additional observations from a re-analysis of the deposited data

How the results depend on the processing

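No paired analysis was possible because the table holds 1 value per group, and for the same reason no replicate could be left out. The FPKM minimums only filter symbols and the locus of highest FPKM was the same for each member, so these 28 member ratios could not change. Among the other 48, those with FPKM summed over loci could change only for HRAS, which has 2 loci. The 2-fold threshold leaves every ratio as it was, so only members past 1.5-fold could change side there. A pseudocount only draws a ratio towards no change, so it could neither turn a sign nor add a call. Of all 48, 41 kept their direction and side of the threshold and 5 dropped under it, among them RRAS2, MRAS and RAP1B at 2-fold. The remaining 2 changed sign on centring, RRAS to 0.12 and RALB to 0.11. Centring also put the median of the members at -0.13 and of all expressed symbols at 0. The share of all expressed symbols lower was then 13.6%, and 14 of the 75 list genes were lower. At a 2-fold threshold 1 member was lower (RAP1A) and 0 higher, 10 list genes were lower and the share of all symbols was 8.65%. With a pseudocount of 1, or at least 10 FPKM in both groups, 0 members were higher. The 10-FPKM minimum left 3 lower and 0 higher list genes, since fewer genes were counted. The number of higher list genes, 1, was 2 with the locus of highest FPKM, 4 with FPKM summed over loci, 0 with at least 1 FPKM in both groups and 7 with no minimum. With 1 value per group, replicate error limits every ratio, and at levels such as that of MRAS the fragments behind a value are unknown.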
